A study of Mus musculus with 12 samples.

Results

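The comparison described here is the main effect of radiation over the whole experiment: 6 libraries from tumours given 20 Gy against 6 libraries from tumours given none, with the fusion protein as an additive factor. All 12 of the 12 libraries entered it, and 18274 of the 55401 genes in the deposited table passed the filter on low values (10 or more normalized counts in 3 or more libraries). Mice of WT genotype carried B16-OVA tumours, a melanoma line that expresses ovalbumin, for 10 days before treatment. The 4 groups of 3 libraries were untreated, fusion protein, 20 Gy, and both treatments together (combined). Mice given the fusion protein had a first dose of 20 mcg with the radiation on day 10 and a second of 10 mcg on day 14; no source used here gives its parts. Live CD45+ CD11c+ cells were sorted from the tumours on day 17, that is 7 days after the single 20 Gy dose, and their total RNA was sequenced. The labels number the libraries 1 to 3 in each group without saying that each came from a separate mouse, so each p-value refers to the spread among these libraries, some of which may be technical. In read counts, 20 Gy replicates 1 and 2 were the most alike of the pairs within a group. Their chi-square per degree of freedom was 9.6, against 49.2 to 156.7 for the other such pairs. Whether these 2 libraries share a source was not tested.

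CD11c, the product of Itgax, is the integrin that defines the sort. It is carried by conventional dendritic cells, which take up tumour antigen and prime T cells, and also by many tumour macrophages and monocyte-derived cells and by some activated T and NK cells. A dose of ionising radiation kills tumour cells and lymphocytes, releases nucleic acids that trigger interferon production, and is followed by an influx of myeloid cells from the blood. A type I interferon response is read through genes such as Rsad2 and the Slfn family. Type 1 conventional dendritic cells (cDC1), marked by Xcr1 and Clec9a, are specialised for cross-presentation to CD8 T cells.

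The labelled cell type was checked on its markers. Itgax was present in all 12 libraries, at normalized counts of 4007 to 7937 with radiation (median 5549) and 2226 to 9497 without (median 4880), and Ptprc, which encodes CD45, was between 30925 and 53839. Transcripts of T cells (Cd3e), NK cells (Ncr1), B cells (Cd79a) and red cells (Hbb-bs) were also detected in every library. Reads in genes numbered 15079786 to 23985496 in the irradiated libraries and 14462032 to 21572377 in the others (exact permutation within fusion protein strata, two-sided p = 0.345). The arms differed in other library measures. All genes with an mt- symbol were counted as mitochondrial. They took 10.68% to 18.57% of reads with radiation and 6.95% to 10.48% without, with no overlap. The exact permutation p was 0.005, the smallest the 400 arrangements allow (adjusted over 3 measures p = 0.015). Receptor genes of smell and pheromone sensing (1482 olfactory, vomeronasal and trace-amine loci) are not known products of immune cells, and 14.24% to 84.82% of them had a read in the irradiated libraries and 5.47% to 29.08% in the others (exact permutation p = 0.05, adjusted p = 0.075). The share was highest in 20 Gy replicates 1 and 2 and combined replicate 1. The part of these measures in the results was not tested, and counts without those 3 libraries, or with the receptor gene level in the fit, stand beside the gene groups where they differ by over 1.5 times.

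Few genes separated the arms completely, and the libraries varied widely within each arm. In the additive limma fit, 0 genes were higher and 0 were lower at an adjusted p under 0.05 (0% of 18274 in each direction), while 1375 (7.52%) were higher and 757 (4.14%) lower at an unadjusted p under 0.05. edgeR on the recovered reads also called 0 and 0, with 1930 genes at an unadjusted p under 0.05, and DESeq2 called 77 higher and 46 lower. The 12 pairs of libraries that share a replicate number across the arms deviated together from their group means (correlations 0.156 to 0.496). The 24 pairs of other numbers across the arms overlapped that range (-0.496 to 0.351). Number 2 was the less clear, as 20 Gy replicate 2 correlated at 0.156 and 0.268 with untreated and fusion protein replicates 2. With replicates 1 of those groups its correlations were 0.351 and 0.324. Within the irradiated arm it correlated at 0.01 with combined replicate 2 and at 0.354 with combined replicate 1. With the replicate number as a block, the same log2 differences gave 617 genes that rose (3.38% of those tested) and 357 that fell (1.95%), 974 in all (5.33%). Their median log2 differences were 1.09 and -0.61. Every one of the 617 was higher in the irradiated library in at least 5 of the 6 same-number pairs, 539 of them in all 6, and 330 of the 357 were lower in all 6 pairs. The fit with the block chose these genes on the same libraries and numbers. Their agreement over the pairs follows largely from that choice and is no separate support. Over all tested genes 1497 (8.19%) were higher and 1371 (7.50%) lower in all 6 pairs. Complete separation of the 6 irradiated from the 6 other libraries was rarer: 52 genes (0.285%) lay wholly higher and 43 (0.235%) wholly lower.

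In parentheses after a gene the first value is its log2 difference, irradiated minus not, on the log2(count + 1) scale and the second the adjusted p with the block; ± gives the SE over 6 and 6 libraries, and ranges are of normalized counts. In what follows, rose and fell are used only for genes with an adjusted p under 0.05 in the limma fit with the replicate block. None of these genes passed in the additive limma fit without the block. With sample weights and no block, 76 of the 974 passed. The calls with the block depended on single libraries. Leaving out each of the 12 in turn with the block left 102 to 674 genes rising and 43 to 440 falling. The counts of genes that rose moved by over 1.5 times without untreated replicate 2 (102 rose and 43 fell), untreated replicate 3 (220 and 99), 20 Gy replicate 2 (234 and 104), fusion protein replicate 2 (247 and 160) and combined replicate 3 (390 and 205). The count of genes that fell also moved by over 1.5 times without 20 Gy replicate 1 (453 rose and 188 fell) and fusion protein replicate 1 (473 and 217). Without the 4 libraries of number 1, 376 rose and 96 fell, and without those of number 2 or number 3 limma with the block called 0 in both directions (2430 and 4163 genes at an unadjusted p under 0.05). With receptor gene level as covariate beside the block, 101 rose (0.553%) and 11 fell (0.0602%), and 86 of the 974 calls were shared. Without the 3 receptor-rich libraries 187 rose and 17 fell.

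**Figure D1:**
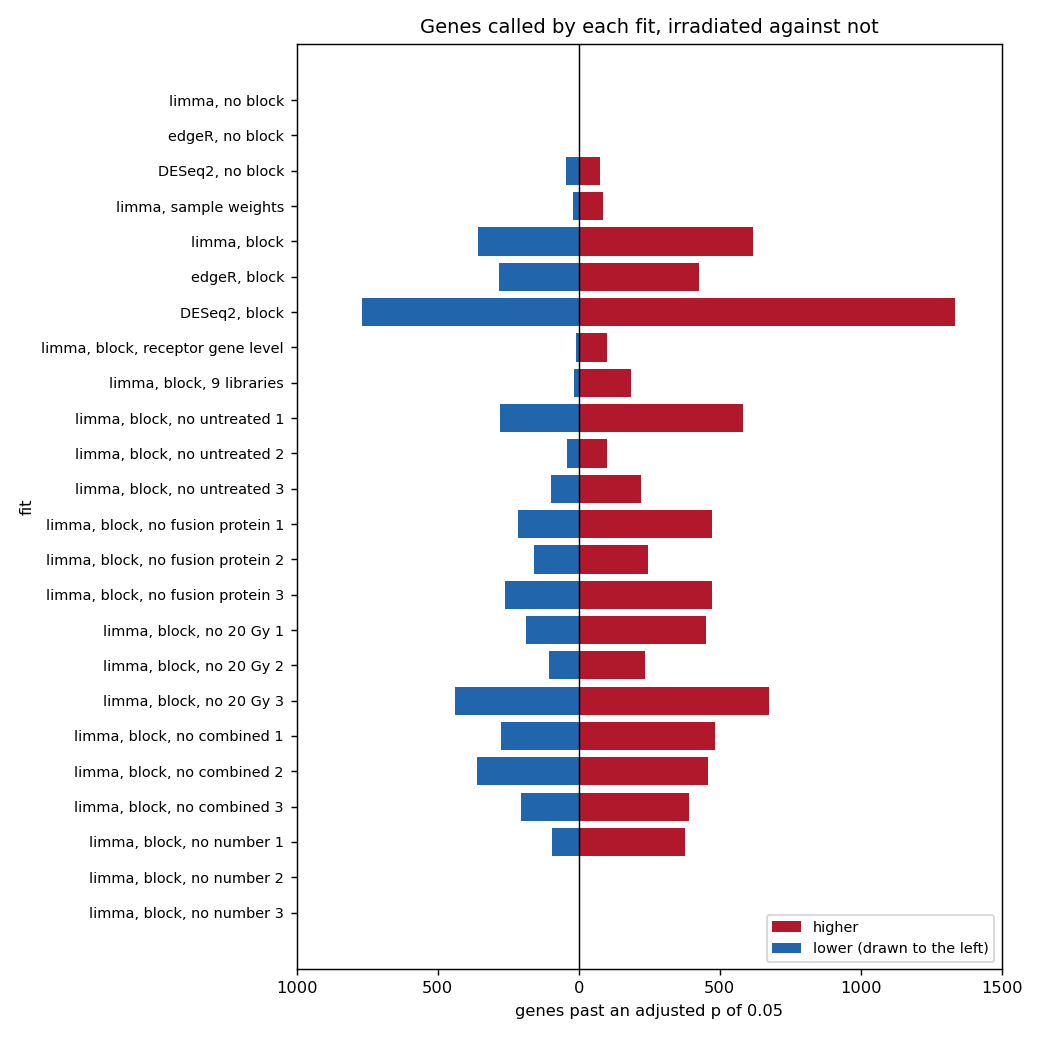
Number of genes (x axis) called higher (rose) or lower (fell) with radiation at an adjusted p under 0.05 by each fit. Without the replicate block, limma without sample weights and edgeR called 0 in both directions, and limma with sample weights called 85 and 20. With the block, limma called 617 and 357.

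The promoters of 4 genes that rose are shown to set the measured groups beside the DNA upstream of them. With each library left out in turn, limma with the block called Slfn5 in 2 of 12 fits (adjusted p 0.0238 to 0.0925). Lcn2 was called in 5 of these fits, S100a9 in 11 and Rsad2 in 12. Each run is the 250 bases before the RefSeq gene start on the gene's own strand, 5′ to 3′, build GRCm38.p6. In the first pair, neutrophil genes, capitals mark a match to TTGCNNAA, the C/EBP-type motif. In the second pair, interferon-stimulated genes, capitals mark a match to TTTC, any 2 bases and TTTC again, the core of the interferon-stimulated response element, or to its reverse complement.
Lcn2, chr2:32387740-32387989, minus strand: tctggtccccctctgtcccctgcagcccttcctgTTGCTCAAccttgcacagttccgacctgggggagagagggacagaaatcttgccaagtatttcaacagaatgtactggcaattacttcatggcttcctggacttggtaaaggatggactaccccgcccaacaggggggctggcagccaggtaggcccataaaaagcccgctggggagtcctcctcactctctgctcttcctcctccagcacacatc
S100a9, chr3:90695722-90695971, minus strand: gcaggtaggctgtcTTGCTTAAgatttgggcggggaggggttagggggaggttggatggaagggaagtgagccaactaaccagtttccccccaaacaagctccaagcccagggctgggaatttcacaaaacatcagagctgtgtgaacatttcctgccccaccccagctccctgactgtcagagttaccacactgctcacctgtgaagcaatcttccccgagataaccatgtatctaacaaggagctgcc
Rsad2, chr12:26456453-26456702, minus strand: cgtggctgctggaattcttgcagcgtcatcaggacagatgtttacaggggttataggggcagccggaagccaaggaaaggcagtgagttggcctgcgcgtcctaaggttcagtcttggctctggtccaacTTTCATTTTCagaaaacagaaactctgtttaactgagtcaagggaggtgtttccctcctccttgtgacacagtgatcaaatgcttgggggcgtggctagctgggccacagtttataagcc
Slfn5, chr11:82951852-82952101, plus strand: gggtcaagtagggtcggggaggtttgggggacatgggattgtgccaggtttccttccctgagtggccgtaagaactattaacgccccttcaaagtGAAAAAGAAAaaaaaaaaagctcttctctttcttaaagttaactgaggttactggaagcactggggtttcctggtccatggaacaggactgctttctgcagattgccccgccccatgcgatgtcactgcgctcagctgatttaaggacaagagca
The matches began 216 bases before the start of Lcn2, 236 before S100a9, 120 before Rsad2 and 155 before Slfn5. With both strands searched, TTGCNNAA was found in 7 of the 18 neutrophil-list genes with a promoter sequence (38.9%), in 9.22% of the 11625 tested genes with one and in 10.8% of all 27025 genes of the table. The interferon-stimulated response element core was found in 12 of 25 type I interferon genes (48%), in 3.42% of tested genes and in 3.46% of all. Both motifs were also frequent in other lists. TTGCNNAA was in 36.4% of plasmacytoid, 30% of B and plasma cell and 28.6% of T cell genes with a promoter, and the response element core in 60% of interferon gamma genes. The motifs do not contain each other. A match describes the letters only and is no record of binding.

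Neutrophil transcripts had the largest median difference among the lists of immune cell types. All 19 tested genes of the neutrophil list had a positive difference (median log2 2.55, against 0.04 over all tested genes, of which 54.7% were positive), and 14 rose. In bulk RNA, more cells of a type and more RNA per cell cannot be told apart, here and for each list that follows. S100a9, a subunit of the antimicrobial protein calprotectin, was at normalized counts of 610.3 to 2174 with radiation (median 1597) and 8.1 to 1551 without (median 128.2). It was higher in all 6 pairs, by 3.91 ± 1.14 on the log2(count + 1) scale (SE, n = 6 and 6; limma adjusted p = 0.335, with the block 0.019), although the arms overlapped. Its partner S100a8 ran from 191.9 to 786.6 (median 503.3) against 0 to 591.2 (median 62.4), a difference of 3.86 ± 1.25 (adjusted p = 0.352, with the block 0.0273). Lcn2, which sequesters bacterial iron carriers, ran from 66.9 to 590.2 against 0 to 306.7, and rose by 3.75 (blocked adjusted p = 0.0382). The call was lost without any one of 7 libraries for Lcn2 and any one of 4 for S100a8.

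Of the 19 tested genes of the neutrophil list, 3 lay wholly higher with radiation, against 0.285% of all tested genes. Il1f9, an IL-36 cytokine, was at 38.6 to 252.6 with radiation (median 67.2) and 0 to 33 without (median 5.77), with no overlap, a log2 difference of 3.71 ± 0.73 (adjusted p = 0.24, with the block 0.0113). Stfa2l1, a stefin-type protease inhibitor whose reads may be split with close relatives, was at 17.1 to 62.8 against 0 to 10.6, again with no overlap (3.73 ± 0.68, blocked adjusted p = 0.0125). Both kept their call in all 12 leave-one-out fits with the block and with receptor gene level as covariate (adjusted p = 0.0383 and 0.036). The formyl peptide receptor gene Fpr2, which is not on the list, was also higher, at 49.3 to 133.8 against 7.24 to 64.5 (2.18 ± 0.42, blocked adjusted p = 0.0113). The collagenase gene Mmp8 (3.30), the gelatinase gene Mmp9 (2.27), Retnlg (3.49) and the G-CSF receptor gene Csf3r (1.74) also rose. The primary granule gene Mpo did not pass (1.43, blocked adjusted p = 0.154), nor did the lineage marker Ly6g (2.21, 0.0709), which was at 5.36 to 16.4 against 0 to 9.31.

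The neutrophil count rested in part on 2 libraries: without untreated replicates 2 or 3, 6 or 7 members rose in place of 14. With the receptor gene level in the fit 5 rose, and 11 rose without the 3 receptor-rich libraries. The difference was 3.06 at the list median without the fusion protein and 2.23 with it, and no gene passed the test of the interaction between the treatments (0 of 18274 by limma, 188 at an unadjusted p under 0.05, 1.03%; 1 by DESeq2 and 0 by edgeR).

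**Figure D2:**
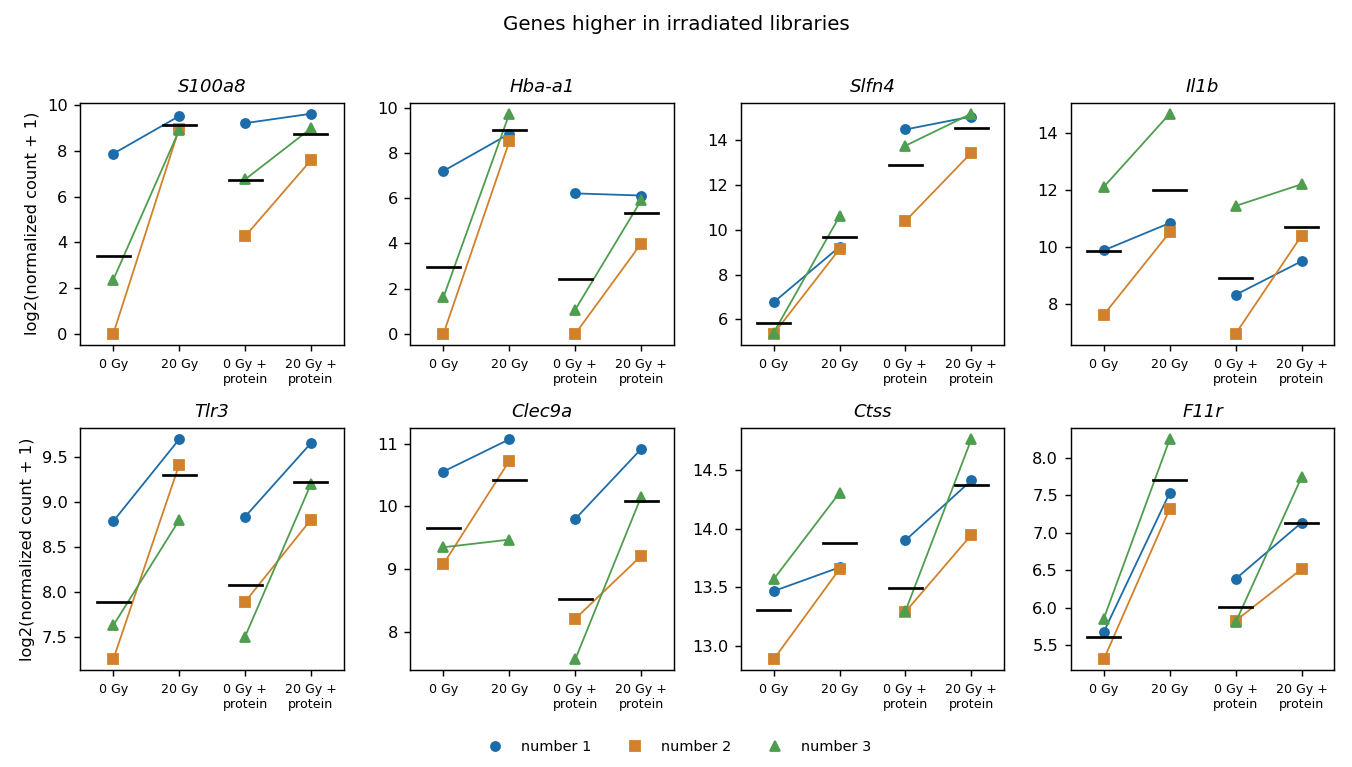
Normalized counts (y axis, log scale of count + 1) of 8 genes that rose with radiation, by library in the 4 groups, with lines joining libraries of the same number and a black bar at the group mean. S100a8 and Il1b overlap between the arms but are higher with radiation within each number, and F11r lies between 90.4 and 302.3 in all irradiated libraries, above the highest other library at 82.5.

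Red-cell transcripts, which a CD45+ sort should not hold in quantity, moved in the same direction. The erythroid list had 9 of its 10 tested members positive (median 3.12), and 6 rose. Hba-a1, an alpha-globin gene whose reads cannot be cleanly separated from those of Hba-a2, was at 14.9 to 848.1 with radiation (median 215.8) and 0 to 146 without (median 1.58). The difference was 4.50 ± 1.30 (adjusted p = 0.335, with the block 0.0203), and the irradiated library was higher in 5 of the 6 pairs. Hbb-bs was at 55.8 to 1232 against 1.01 to 331 (3.89 ± 1.17, blocked adjusted p = 0.0185) and kept its call in all 12 leave-one-out fits. The haem synthesis gene Alas2 (3.36) and the band 3 gene Slc4a1 (3.02) rose, each in 5 of the 12 such fits. The list count went from 6 to 1 without untreated replicate 2 or 3, to 2 without fusion protein replicate 2 or 20 Gy replicate 2 and to 3 without combined replicate 3. It was 0 with the receptor gene level in the fit and 3 without the 3 receptor-rich libraries. The platelet genes Pf4 (2.59) and Ppbp (2.88) were the 2 of 6 tested platelet-list members that rose. That count was 0 without untreated replicate 2 or 3, fusion protein replicate 2 or 20 Gy replicate 2, 1 without fusion protein replicate 3, 20 Gy replicate 1 or combined replicate 3, and 0 with the receptor gene level in the fit or without the 3 receptor-rich libraries.

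Macrophage and monocyte genes were also higher with radiation, by smaller amounts. All 23 tested macrophage genes had a difference of 0 or above (median 0.94), and 5 rose. Cd68, a lysosomal protein of phagocytes, was at 1409 to 3174 with radiation (median 1712) and 702 to 1743 without (median 1221), higher in all 6 pairs (0.78 ± 0.28, adjusted p = 0.362, with the block 0.0113), and kept its call in all 12 leave-one-out fits. The Fc receptor gene Fcgr1 ran from 186.4 to 4885 against 30 to 2443 (1.48 ± 0.65, blocked adjusted p = 0.0241), and Ms4a7 from 114.4 to 409.1 against 12.5 to 135.4 (1.69 ± 0.46, 0.0202). Standard markers of resident macrophages did not pass: Adgre1 was 0.65 (blocked adjusted p = 0.167), Mrc1 1.18 (0.156), C1qa 0.63 (0.27) and the CSF-1 receptor gene Csf1r 0.85 (0.0572). The count of 5 dropped to 1 without untreated replicate 2 or 20 Gy replicate 2 and to 2 without untreated replicate 3 or fusion protein replicate 2. It was 1 with the receptor gene level in the fit and 2 without the 3 receptor-rich libraries.

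Of 18 monocyte genes, 15 were positive (median 1.34) and 7 rose. They included F10, coagulation factor X, at 274.3 to 2355 against 17.5 to 970.1 (1.91 ± 0.78, blocked adjusted p = 0.0249), the matrix proteoglycan gene Vcan (2.29, 0.0285), Hp, which encodes haptoglobin (1.70, 0.0265), and Thbs1, which encodes thrombospondin (2.42, 0.0339). The chemokine receptor gene Ccr2, which marks recruited monocytes, was at 4147 to 5328 against 2992 to 5946 and did not pass (0.37, 0.135). Without untreated replicates 1, 2 or 3 the count of 7 was 4, 0 and 1. It was 2 or 3 without fusion protein replicates 2 or 3, 3 and 2 without 20 Gy replicates 1 and 2, and 3 without combined replicate 2. With the receptor gene level in the fit, or without the 3 receptor-rich libraries, 0 rose.

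Phagolysosome and lipid genes, which macrophages and dendritic cells share, shifted with them. Of 24 lysosome and phagocytosis genes 20 were positive (median 0.46) and 10 rose, and of 18 lipid handling genes 16 were positive (median 0.90) and 9 rose. Lamp2, a lysosome membrane protein, was at 2056 to 4167 against 1002 to 2635, higher in all 6 pairs (0.75 ± 0.26, adjusted p = 0.352, with the block 0.0115) and called in all 12 leave-one-out fits. The scavenger receptor gene Msr1 ran from 172.5 to 1331 against 36.2 to 643.1 (1.68, blocked adjusted p = 0.021), and the apoptotic cell receptor gene Axl from 1393 to 5530 against 340.7 to 3274 (0.95, 0.0257). The fatty acid receptor gene Cd36 (1.16, 0.0351) and the sterol-sensing receptor gene Nr1h3 (1.02, 0.0434) rose as well. The lysosome count ranged from 1 without untreated replicate 2 and 2 without 20 Gy replicate 2 to 3 without untreated replicate 3, 4 without combined replicate 3, 5 without fusion protein replicates 2 or 3 or combined replicate 1, and 6 without fusion protein replicate 1. The lipid count was 0 without untreated replicate 2, 1 without 20 Gy replicate 2, 2 without untreated replicate 3, 3 without fusion protein replicate 2, and 4 and 5 without combined replicates 3 and 2. Both were 0 with the receptor gene level in the fit, and 3 and 0 without the 3 receptor-rich libraries. Pla2g7, a lipoprotein-associated phospholipase on neither list, was steadier at 431 to 1489 against 187.9 to 754.1 (1.59 ± 0.31, blocked adjusted p = 0.0113, 0.0427 with the receptor gene level), and kept its call in all 12 leave-one-out fits.

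Of 18 tested genes of the cDC1 list, 15 were positive (median 0.74) and 9 rose. Tlr3, the endosomal sensor of double-stranded RNA through which cDC1 respond to dying cells, was at 445 to 832.5 with radiation (median 636.1) and 151 to 456.9 without (median 216.3). Only 1 unirradiated library reached the range of the irradiated ones, and the difference was 1.28 ± 0.30 (adjusted p = 0.312, with the block 0.0113). It was 1.42 without the fusion protein and 1.15 with it, was called in all 12 leave-one-out fits and passed with receptor gene level as covariate (0.0437). Clec9a, the receptor for exposed actin of dead cells, was at 591.4 to 2146 against 187.9 to 1503 (1.16 ± 0.45, adjusted p = 0.378, with the block 0.0251). Naaa (0.93), Gcsam (0.88), Ppt1 (0.62), Batf3, the transcription factor that specifies the lineage (0.99), and the growth factor receptor gene Flt3 (0.79) rose. The chemokine receptor gene Xcr1 was at 171.8 to 1132 against 30.8 to 664.2, higher in all 6 pairs but short of the threshold (0.95, blocked adjusted p = 0.0635). The pan-conventional marker Zbtb46 likewise did not pass (0.48, 0.0579). The count of 9 was 2 without untreated replicate 2, 4 without 20 Gy replicate 2 and 5 without fusion protein replicate 2 or combined replicate 3. It was 2 with the receptor gene level in the fit and 2 without the 3 receptor-rich libraries.

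The type 2 conventional list had 11 of 16 members positive (median 0.18) and 2 rose, a count that went to 0 or 1 without all but 2 of the single libraries, and to 0 with the receptor gene level in the fit or without the 3 receptor-rich libraries. The plasmacytoid list had 7 of 16 positive (median -0.09), with 0 called by limma or edgeR with the block and 1 higher by DESeq2 with the block. The list of mature regulatory dendritic cells had 25 of 30 positive (median 0.27), with the costimulatory genes Cd86 (0.72, blocked adjusted p = 0.0326) and Cd40 (0.69, 0.0441) rising and Ccl5 falling; Cd86 was called in 4 and Cd40 in 2 of the 12 leave-one-out fits, and both passed with the receptor gene level in the fit (0.0249 and 0.0212). In that list 5 members rose with the receptor gene level in the fit (median 0.81, against 0.74 for the cDC1 list) and 5 without the 3 receptor-rich libraries. Its 2 became 4 without untreated replicate 1 and 0 or 1 without any one of 10 others. The chemokine gene Ccl22 of this list was at 16.2 to 3751 with radiation (median 159.3) and 11.6 to 657.9 without (median 203.2). It was higher in 3 of the 6 pairs (0.34 ± 0.97, adjusted p = 0.924, with the block 0.728). Ccr7, the receptor that takes these cells to lymph nodes, was -0.29 (0.662 with the block), and Fscn1, which encodes the actin bundler fascin, was 0.00 (0.996); the direction of Ccl22, Ccl17 (0.62), Ccr7 and Fscn1 turned under other settings. The checkpoint ligand gene Cd274 (0.56, blocked adjusted p = 0.0847) and the IL-12 subunit gene Il12b (1.10, 0.0999) did not pass, and did with the receptor gene level in the fit (0.0249 and 0.036), Cd274 also without untreated replicate 1 (0.0257).

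**Figure D3:**
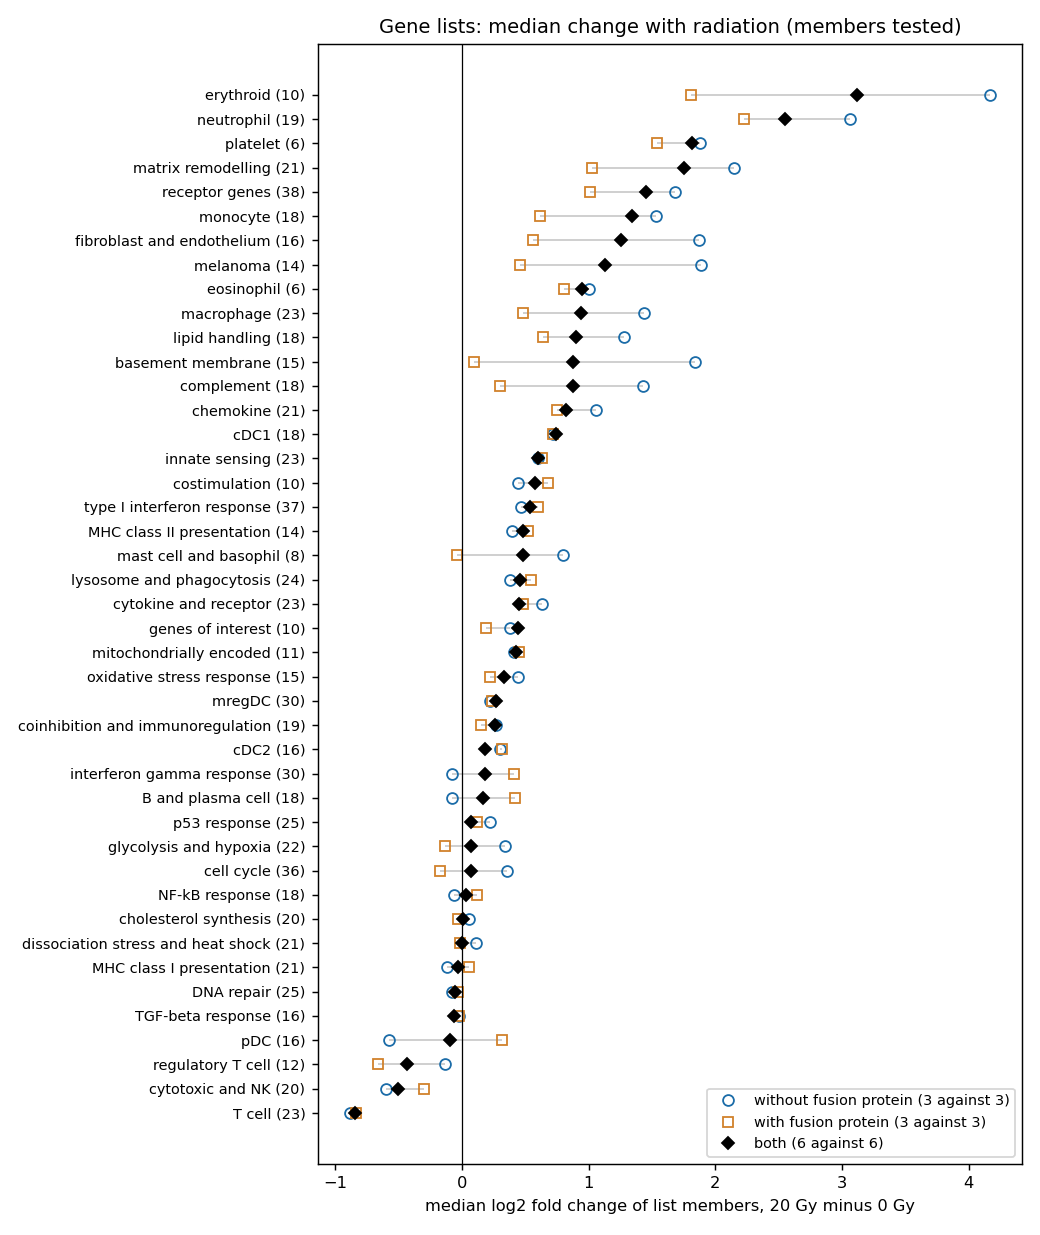
Median log2 difference (x axis) between irradiated and unirradiated libraries for each gene list, over both strata and in the strata without and with the fusion protein. Neutrophil and erythroid medians are 2.55 and 3.12, and the T cell median is -0.84, with -0.88 and -0.83 in the strata.

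T cell transcripts were lower with radiation. All 23 tested genes of the T cell list were negative (median -0.84), 16 fell, and 15 were lower in the irradiated library of all 6 pairs. Lck, the kinase that starts signalling from the T cell receptor, was at 973.2 to 3619 with radiation (median 1864) and 1585 to 5127 without (median 3646). The arms overlapped, and the difference was -0.86 ± 0.26 (adjusted p = 0.338, with the block 0.0113). The receptor chain gene Cd3g was at 428.5 to 2379 against 706.2 to 5384 (-1.04 ± 0.48, adjusted p = 0.424, with the block 0.0173), lower in all 6 pairs. Cd247, the signalling zeta chain, was at 526.2 to 1970 against 908.4 to 2808 (-0.94 ± 0.31, blocked adjusted p = 0.0132). Lck and Cd247 kept their call in all 12 leave-one-out fits. Cd8b1 (-1.11), the adhesion receptor gene Cd2 (-0.84), Cd6 (-1.13) and Bcl11b, a transcription factor of T cell identity (-1.03), fell. Cd8a was lower in 5 of 6 pairs without passing (-0.71, blocked adjusted p = 0.121). The strata had almost the same median, -0.88 without and -0.83 with the fusion protein. Without untreated replicates 2 or 3 the count of 16 was 2 or 6, without fusion protein replicate 1 it was 10 and without 20 Gy replicate 2 it was 7. With the receptor gene level in the fit 0 fell although the list median was -0.78, and 2 fell without the 3 receptor-rich libraries.

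The cytotoxic and NK list had 19 of 20 members lower (median -0.50), of which 6 fell. Tbx21, the T-bet factor of type 1 lymphocytes, was at 616.9 to 2267 against 1236 to 6246 (-0.82 ± 0.35, adjusted p = 0.407, with the block 0.0192). Eomes (-0.80, blocked adjusted p = 0.0253), the perforin gene Prf1 (-0.79, 0.0246) and Nkg7 (-0.76, 0.0271) fell as well. The NK receptor genes Ncr1 (-0.58, 0.0552) and Klrb1c (-0.54, 0.0631) and the cytokine gene Ifng (-0.75, 0.0917) did not pass. The count of 6 was 0 without untreated replicate 2, 2 without fusion protein replicate 1 and 1 without untreated replicate 3, 20 Gy replicates 1 or 2 or combined replicate 3, and was 0 with the receptor gene level in the fit or without the 3 receptor-rich libraries. Regulatory T cell genes were lower in 11 of 12 cases (median -0.43) with 0 called by limma with the block and 1 lower by DESeq2 with the block. The median was -0.09 with the receptor gene level and the block. Without the block it was 0.52 without the 3 receptor-rich libraries and -0.80 to 0.01 with 1 library left out. Foxp3 itself was -0.28 (0.662), a sign that turned under other settings. B and plasma cell genes had 14 of 18 members positive (median 0.17) and 0 called by limma, edgeR or DESeq2 with the block, and their direction was not stable. The median was -0.42 in numbers 1 and 2 alone and -0.68 without the 3 receptor-rich libraries (0.72 with the block). It was -0.47 to 0.79 with 1 library left out and no block.

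The 12 named genes of smallest p that were lower included several that lymphocytes express. Il18rap, which encodes the accessory subunit for IL-18 binding, was at 1685 to 2476 with radiation (median 1947) and 2589 to 4185 without (median 3332). The arms did not overlap, and the difference was -0.71 ± 0.15 (adjusted p = 0.247, with the block 0.0169), and it was called in all 12 leave-one-out fits. The chemokine gene Ccl5, made by cytotoxic T and NK cells among others, was at 3048 to 10225 against 7245 to 22236 (-0.89 ± 0.18, adjusted p = 0.247, with the block 0.0146), lower in all 6 pairs; its call was lost without untreated replicate 2. Nlrc3, an inhibitory member of the NOD-like family, was at 622.1 to 1005 against 956.3 to 1775 (-0.84 ± 0.17, blocked adjusted p = 0.0113). Adamts14, a procollagen-processing protease, was at 1001 to 2100 against 1719 to 4087 (-0.79 ± 0.14, blocked adjusted p = 0.0113, 0.0486 with the receptor gene level). Abca2, a lipid transporter, was at 1167 to 1554 with radiation and 1587 to 2617 without, with no overlap (-0.65 ± 0.14, blocked adjusted p = 0.0113). Mxd4, a partner of MAX that opposes MYC, was at 677.6 to 1094 against 1097 to 2034, also with no overlap (-0.67 ± 0.14, 0.0113). With the receptor gene level in the fit Il18rap (adjusted p = 0.15), Ccl5 (0.14), Nlrc3 (0.0781) and Mxd4 (0.0562) did not pass, and Abca2 did (0.0486). Sh2b1, Gpsm1, Cuedc1, Ppp3cc, Kcnj8 and Plekhf1 complete the 12 genes of smallest p in this direction, with differences from -0.49 for Sh2b1 to -1.02 for Kcnj8.

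**Figure D4:**
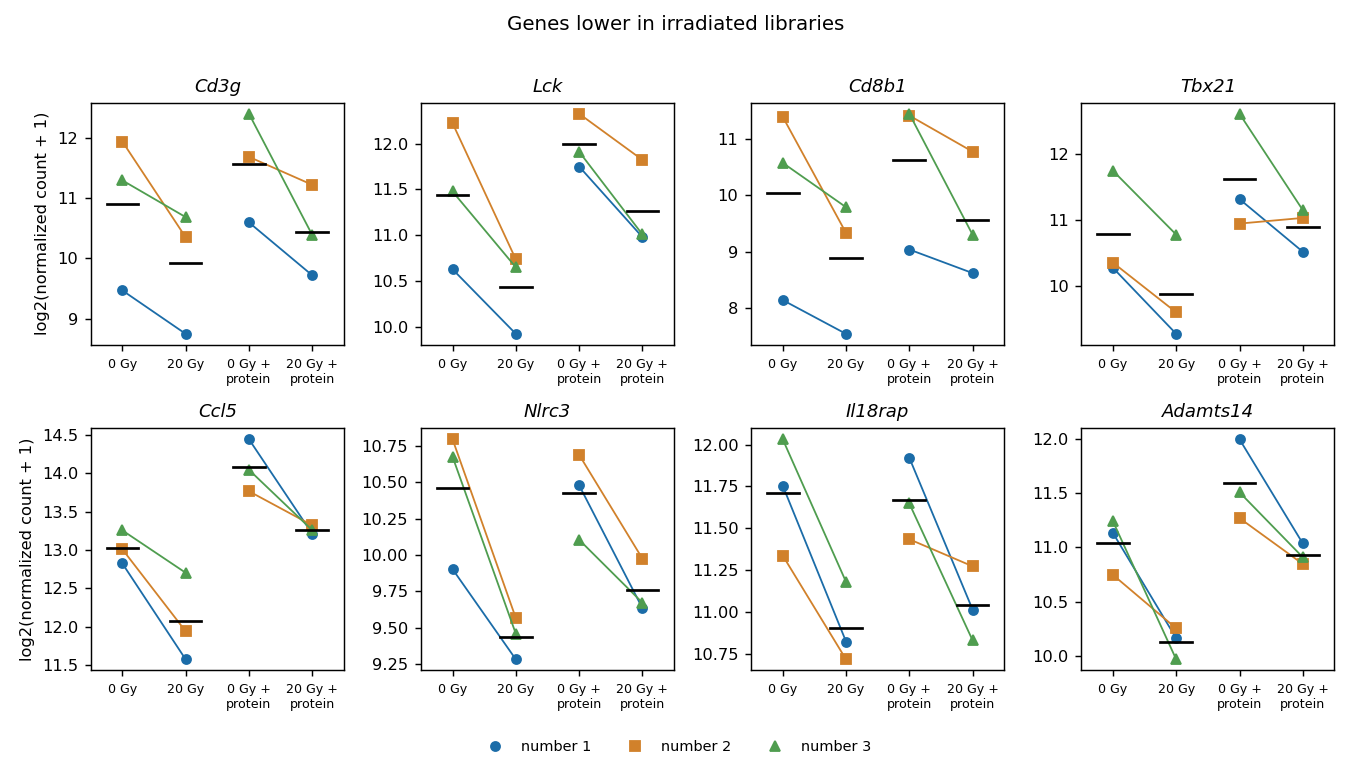
Normalized counts (y axis, log scale of count + 1) of 8 genes that fell with radiation, by library in the 4 groups, with lines joining libraries of the same number and a black bar at the group mean. Il18rap is at most 2476 in the irradiated libraries and at least 2589 in the others, while Cd3g and Lck overlap between the arms and are lower in all 6 pairs.

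Of 37 type I interferon response genes 35 were positive (median 0.54), 10 rose and 16 were higher in all 6 pairs. The wide spread within each arm followed the fusion protein, which is a factor of the fit. The mean log2(count + 1) level of the list was 8.64 to 8.98 in untreated and 9.07 to 10.04 in 20 Gy libraries, and 11.19 to 12.05 with the fusion protein alone and 11.79 to 12.53 with both treatments. Slfn4, a schlafen family gene of myeloid cells, spanned 564.7 to 37381 with radiation (median 6352) and 39.9 to 22961 without (median 727.1). The arms overlapped widely, yet all 6 pairs were higher (2.75 ± 0.69, adjusted p = 0.312, with the block 0.016). Rsad2, which encodes the antiviral enzyme viperin, was at 537.9 to 11932 against 257.1 to 7064 (1.18 ± 0.44, blocked adjusted p = 0.0129, 0.0334 with the receptor gene level). The sialic acid receptor gene Siglec1 was at 122.1 to 3659 against 34.9 to 2486 (1.13 ± 0.36, 0.0146), and the RNA sensor gene Ifih1 at 1088 to 7962 against 664 to 4683 (0.75 ± 0.26, 0.0184). Slfn4, Rsad2 and Siglec1 kept their call in all 12 leave-one-out fits. Other members were less steady: Ifit1, Ifit2, Ifit3 and Irf7 were each higher in 4 of the 6 pairs. Without the fusion protein these were lower with radiation in numbers 1 and 2 and higher in number 3. For Ifit1 the 3 differences were -0.23, -0.82 and 2.56, and for Ifit3 -0.73, -0.66 and 1.29. The list median was 0.47 without and 0.60 with the fusion protein, and 0.24 in numbers 1 and 2 alone without the block. With the receptor gene level in the fit 8 rose, and 8 rose without the 3 receptor-rich libraries. The count was 4 or 5 without untreated replicates 2 or 3, 6 without fusion protein replicates 2 or 3 or combined replicates 1 or 3, 5 without 20 Gy replicate 2 and 19 without 20 Gy replicate 1.

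Interferon gamma targets were less uniform. Of 30, 21 were positive (median 0.18) and 3 rose: Nos2, the inducible nitric oxide synthase, at 15 to 1340 against 0 to 162.6 (3.39 ± 1.33, adjusted p = 0.38, with the block 0.0125), Cxcl11 (2.18, 0.0205) and the GTPase gene Irgm2 (0.45, 0.0309). The count was 1 without untreated replicate 2, 3 with the receptor gene level in the fit and 2 without the 3 receptor-rich libraries. The CXCR3 ligand genes Cxcl9 (0.55, blocked adjusted p = 0.368) and Cxcl10 (0.82, 0.294) were higher in all 6 pairs without passing. The MHC class I list had 10 of 21 positive (median -0.03) and 0 called by limma, edgeR or DESeq2 with the block. The class II list had 13 of 14 positive (median 0.48) and 3 rose, all of them enzymes of antigen processing: Ctss, which encodes cathepsin S, at 12908 to 27718 against 7581 to 15286 (0.72 ± 0.20, 0.0192), Lgmn (0.97, 0.0113) and Ifi30 (0.58, 0.0219). The structural gene H2-Ab1, at 17701 to 52901 against 7880 to 45988, did not pass (0.51, 0.177). The class II count was 1 without untreated replicate 2, 3 with the receptor gene level in the fit and 2 without the 3 receptor-rich libraries.

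Several cytokine and chemokine genes rose, among them the inflammatory cytokine gene Il1b. It was at 725.5 to 26118 with radiation (median 1651) and 123.6 to 4419 without (median 633.1), higher in all 6 pairs (1.96 ± 0.98, adjusted p = 0.458, with the block 0.0132). The receptor antagonist gene Il1rn was at 191.8 to 6977 against 78.6 to 2212 (1.92 ± 0.94, 0.0138), and the decoy receptor gene Il1r2 at 497.8 to 2699 against 205.9 to 702.1 (1.07 ± 0.45, 0.0192). Il23a, a subunit of IL-23, was at 3.6 to 239.5 against 0 to 23.8 (3.07 ± 1.20, 0.0113). These and the IL-18 receptor genes Il18rap and Il18r1 (-0.76, 0.03) make 4 that rose and 2 that fell of 23 tested cytokine and receptor genes; the 2 became 1 without any one of untreated replicates 2 or 3, fusion protein replicates 1 or 2, 20 Gy replicates 1 or 2, or combined replicate 3, and 0 fell with the receptor gene level in the fit or without the 3 receptor-rich libraries. Of 21 chemokine genes 4 rose and Ccl5 fell. The neutrophil attractant gene Cxcl2 was at 213 to 12365 against 25 to 3087 (2.61 ± 1.40, adjusted p = 0.49, with the block 0.0146), Cxcl3 was 3.48 (0.0191), Ccl6 1.61 (0.0146) and Ccl9 1.18 (0.0216). The 4 became 2 without untreated replicate 2 or 3. Il1b, Il1rn, Il23a, Cxcl2 and Ccl6 were called in all 12 leave-one-out fits, and the first 4 of these also passed with the receptor gene level in the fit (0.0395, 0.0186, 0.0427 and 0.0486).

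Of 23 innate sensing genes 9 rose and Nlrc3 fell (median 0.60). Besides Tlr3 they included Tlr13, a sensor of bacterial ribosomal RNA, at 721.1 to 1788 against 141 to 1068 (1.36 ± 0.44, blocked adjusted p = 0.0173), Tlr8 (1.62, 0.0225), the lipopolysaccharide receptor gene Tlr4 (0.84, 0.0329) and the lectin receptor genes Clec4e (2.24, 0.015) and Clec7a (1.21, 0.0214). The count of 9 was 3 without untreated replicate 2 or 3, 5 without fusion protein replicate 1 or combined replicate 2, and 4 without fusion protein replicate 2 or 20 Gy replicate 2. It was 2 with the receptor gene level in the fit and 4 without the 3 receptor-rich libraries.

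Of 25 tested p53 response genes 13 were positive (median 0.07), 7 days after the dose, and limma with the block called 0, edgeR with the block 0 and DESeq2 with the block 3 higher. Phlda3, a p53 target that restrains AKT, was at 27.9 to 128.3 with radiation and 15.7 to 74.7 without (0.99 ± 0.37, adjusted p = 0.369, with the block 0.0725), and the pro-apoptotic gene Bax was at 260.4 to 427.9 against 172.2 to 374.7 and higher in all 6 pairs (0.38, 0.075). Ccng1 (0.28, 0.237) and Pmaip1 (0.57, 0.0939) did not pass, although Pmaip1 did without untreated replicate 1 (0.017). Of 25 DNA repair genes 8 were positive (median -0.05), and Xrcc5, which encodes the Ku80 end-joining subunit, was the 1 that fell (-0.53, 0.0326), in 2 of the 12 leave-one-out fits and not with the receptor gene level in the fit. The cell cycle list had 26 of 36 positive (median 0.07) and 0 called by all 3 tools with the block, with list medians of 0.36 without and -0.17 with the fusion protein.

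Most tested genes of tumour and stroma had positive differences too. The summed counts of their lists were not higher at the median, while their mean log2 levels were higher in at least 5 of the 6 pairs. The melanoma list had 13 of 14 positive (median 1.13), and Met, a receptor kinase gene, was the 1 that rose (1.04, 0.0483), in 2 of the 12 leave-one-out fits; without combined replicate 3, 5 rose, and 0 did with the receptor gene level in the fit or without the 3 receptor-rich libraries. Dct, a pigment enzyme of melanocytes, spanned 8.99 to 6601 with radiation and 0.749 to 1591 without (2.23 ± 2.12, blocked adjusted p = 0.11). Of 16 fibroblast and endothelium genes 13 were positive (median 1.26), with Col3a1 and Col5a1 rising and Thy1, which T cells also express, falling. Col3a1 was at 10.8 to 1102 against 1.5 to 25.9 (2.93 ± 1.09, 0.016), and Col5a2 at 6.29 to 140 against 0 to 4.39 with no overlap (3.68 ± 0.72, adjusted p = 0.24, with the block 0.0113). The 2 that rose became 1 without untreated replicate 2, with the receptor gene level in the fit or without the 3 receptor-rich libraries. Summed over the melanoma list the normalized counts were 1228 to 21235 with radiation (median 2457.8) and 979.6 to 6226 without (median 2464.1). Over the fibroblast and endothelium list they were 3064 to 9288 with radiation (median 6372.5) and 3362 to 11780 without (median 7446.4). Sums follow the most abundant members. The mean log2(count + 1) level of the fibroblast and endothelium list was higher in all 6 pairs, at 4.56 to 6.88 against 3.74 to 4.82. That of the melanoma list was higher in 5 pairs and lower in 1, at 3.71 to 9.36 against 2.5 to 7.76. The part of these transcripts in the other results was not tested.

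The named genes of smallest p that were higher included F11r, which encodes the junctional adhesion molecule JAM-A of leukocytes, platelets and endothelium (chr1:171437535-171464603). It was at 90.4 to 302.3 with radiation (median 171.2) and 38.7 to 82.5 without (median 55.3), with no overlap, a difference of 1.60 ± 0.29 (adjusted p = 0.24, with the block 0.0113). It was called in all 12 leave-one-out fits and was 0.059 with the receptor gene level. Lsr, a lipoprotein receptor of cell junctions, was at 158.1 to 659.6 against 71.9 to 202.8 (1.18 ± 0.25, 0.0113). Aif1, which encodes the macrophage protein IBA1, was at 776.1 to 1835 against 362 to 782.1 (0.85 ± 0.16, 0.0113). Steap4, a metalloreductase, was at 12.6 to 68.2 against 0 to 16.9 (3.72 ± 0.73, 0.0129). Lypla1, a depalmitoylating enzyme, was at 568.8 to 682 against 350.5 to 516.7 with no overlap (0.59 ± 0.13, 0.0125). Prune2 (1.39, 0.0187) and the endocytic receptor gene Lrp2 (3.39, 0.0191) lost their call without untreated replicate 2.

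**Figure D5:**
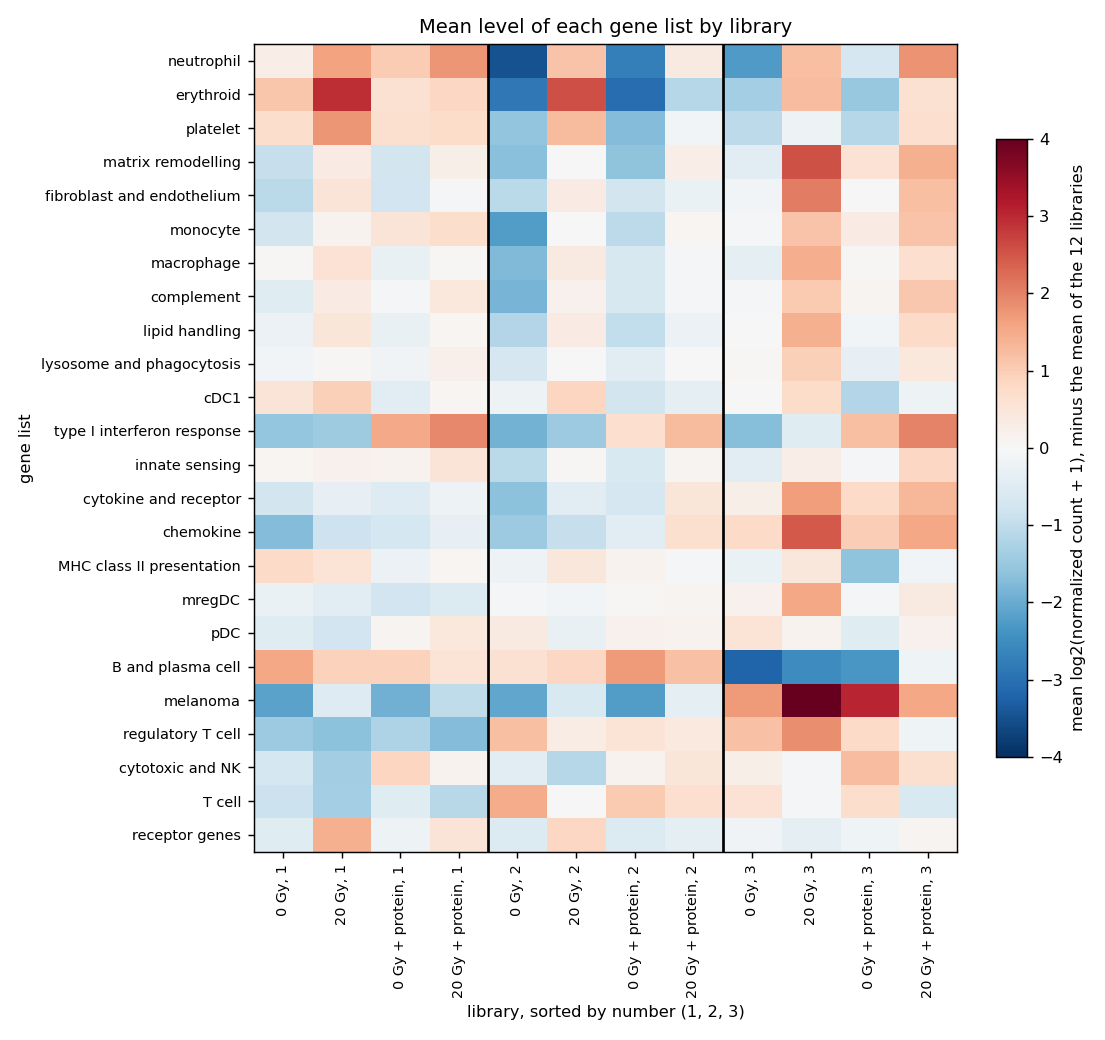
Mean log2(count + 1) level of each of 24 gene lists (rows) in the 12 libraries (columns, sorted by replicate number), centred on the mean of the 12. Irradiated libraries are mostly above the others for the neutrophil list (6.14 to 7.60 against 2.30 to 6.80, overlapping) and lower for the T cell list (8.42 to 10.46 against 8.92 to 11.25), with differences between the numbers in both arms.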

How the data were processed

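Bulk RNA-seq of 12 libraries was analysed (SMARTer Stranded Total RNA-Seq v2 Pico kit, paired reads of 100 bases). The authors used FastQC, Trimmomatic, STAR, featureCounts and DESeq2 on build mm10, per the submitters' processing notes, versions not given in the sources used here. The authors deposited 1 table of size-factor-normalized counts for 55401 genes, a signal and not raw counts. All low values fell on whole multiples of 1 read (100% of values within 0.001 of a whole number), so reads were recovered for the count tests. Of the gene IDs, 99.53% matched the annotation.

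The 18274 genes reaching 10 normalized counts in 3 or more libraries were tested with limma 3.58.1 (R 4.3.3, trend) on log2(count + 1), radiation and fusion protein as additive factors, 9 residual degrees of freedom, Benjamini-Hochberg threshold 0.05, two-sided. A log2 difference on this scale understates the change of low genes. The alternative with the replicate number as a block had 7. The submitters state no meaning for the numbers. They were taken to pair the libraries because all 12 same-number correlations across the arms exceeded 0.1. In the other arm, 11 of 12 libraries correlated best with their own number. The 6 same-number pairs within an arm did not enter that rule and ran from 0.01 to 0.621. The lowest was 20 Gy replicate 2 with combined replicate 2. edgeR 4.0.16 and DESeq2 1.42.0 on the recovered reads, other filters, pseudocounts and scalings, and each library left out were tried. On simulated counts of 16860 genes limma recovered 21 of 67, 50 of 67 and 55 of 65 genes changed by log2 1, 2 and 3 with 0 false calls, and with the block 48, 61 and 64 with 7. DESeq2 with the block gave 24 false calls. The simulated counts carried effects of the replicate number fitted to these data. The better recovery with the block was therefore built in and cannot show whether the numbers pair libraries.

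Named genes were the 12 of largest change in each direction past the threshold, or of smallest p where fewer passed, with a mean of at least 20 in the higher arm, plus the genes of interest and up to 4 members of smallest p and the markers of each list; further genes were named after their values were seen. The comparison, its lists and its members were chosen with earlier results of these data known. Near-identical genes (Hba-a1 and Hba-a2, Hspa1a and Hspa1b) may share reads. Promoters came from RefSeq, GRCm38.p6.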

Additional observations from a re-analysis of the deposited data

Results flagged for a closer look

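In 11 cases a single library lay far from the other 5 of its arm of 6 by Dixon's test, among 306 arms of the 153 genes whose differences were examined, where chance gives about 1 in 20. Combined replicate 2 lay below the other irradiated libraries for S100a8 (191.9), S100a9 (610.3), Alas2 (2.36), Ccl6 (449.1) and Soat1 (1112), and above them for Xrcc5 (373.6). 20 Gy replicate 3 lay above them for Cxcl9 (2604). Among unirradiated libraries, untreated replicate 3 was above the others for Cuedc1 (549.3), untreated replicate 1 was below them for Zap70 (486), and fusion protein replicate 1 was above them for the NK receptor genes Klrb1c (2955) and Ncr1 (8062). Values are normalized counts.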

How the results depend on the processing

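With the additive limma fit, 0 genes were called in both directions under both other pseudocounts, no filter or a filter of 50, quantile scaling, 4 group means, no fusion protein factor, the receptor gene level as a covariate, numbers 1 and 2 alone, without the 3 receptor-rich libraries, by edgeR, and without each library in turn. DESeq2 called 77 higher and 46 lower, with 1 interaction gene, and sample weights called 85 and 20. The cause of these differences was not tested.

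With the replicate number as a block, 617 rose and 357 fell. Further settings of that fit were chosen after seeing the data. The block gave 427 and 283 with edgeR, 1335 and 770 with DESeq2, 101 and 11 with the receptor gene level, 634 and 545 with quantile scaling, and 594 and 461 with a filter of 50 (12525 genes). Leaving out untreated replicates 1, 2 or 3 gave 581 and 278, 102 and 43, or 220 and 99. For fusion protein replicates 1, 2 and 3 the counts were 473 and 217, 247 and 160, and 473 and 262, for 20 Gy 453 and 188, 234 and 104, and 674 and 440, and for combined 485 and 277, 458 and 359, and 390 and 205. Leaving out the 4 libraries of number 1 gave 376 and 96, and leaving out the 3 receptor-rich libraries 187 and 17. Without number 2 or 3 limma with the block gave 0 and 0 (2430 and 4163 at an unadjusted p under 0.05). Of the 974 calls, edgeR with the block shared 701, DESeq2 973 and sample weights 76. Across settings 15 list medians moved by more than the spread between libraries, among them the mast cell and basophil list, from 0.48 to -1.05 with receptor gene level as covariate.

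Among the named genes 6 that passed neither fit turned direction in 46 cases. Without single libraries and without the block, Ccr7 ran from -0.81 to 0.09, Ccl17 from -0.19 to 1.12, Fscn1 from -0.5 to 0.37, Foxp3 from -0.8 to 0.14 and Itgax from -0.04 to 0.34. Ccr7 was 0.16 by edgeR, 0.17 by DESeq2, 1.09 with the receptor gene level, 1.08 without the receptor-rich libraries and 0.09 without 20 Gy replicate 1, and with the block 0.63 with the receptor gene level, 0.04 without 20 Gy replicate 2, 0.1 without number 2 and 0.46 without the receptor-rich libraries. Ccl17 was -0.05 with quantile scaling with or without the block, -0.19 without untreated replicate 1 (-0.12 with the block), and with the block -0.28 without number 1 and -0.08 without the receptor-rich libraries. Ccl22 was -0.19 with sample weights, -0.25 in numbers 1 and 2 alone or with the block without number 3, -0.18 without fusion protein replicate 1 and -0.35 without 20 Gy replicate 3 (-0.17 with the block). Fscn1 was -0.39 with sample weights and -0.5 in numbers 1 and 2 alone or with the block without number 3, was -0.19, -0.33, -0.5, -0.15 and -0.11 without untreated 1, fusion protein 1, 20 Gy 3, combined 2 and combined 3, and with the block -0.01, -0.12, -0.05, -0.16, -0.39, -0.01 and -0.06 without untreated 2, untreated 3, fusion protein 1, fusion protein 3, 20 Gy 3, combined 1 and combined 2. Foxp3 was 0.84 with the receptor gene level, 0.52 without the receptor-rich libraries, 0.14, 0.08 and 0.1 without fusion protein replicate 2, 20 Gy replicate 1 and combined replicate 1, and with the block 0.01 both with the receptor gene level and without combined replicate 3. Itgax was -0.1 with the receptor gene level, -0.12 without the receptor-rich libraries and -0.04 without fusion protein replicate 3.

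Recovered reads number 14462032 or more in each library, while many members of the neutrophil and erythroid lists were at or near 0 reads in some unirradiated libraries, so their fold changes are imprecise.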

Other observations

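Several gene groups outside the comparisons above had members that rose or fell with the replicate block. Of 18 complement genes 16 were positive (median log2 difference 0.88) and 3 rose, among them the central component C3 (0.87, blocked adjusted p = 0.0327) and the C5a receptor gene C5ar1 (2.44, 0.019). The count was 0 without untreated replicate 2 or with the receptor gene level in the fit, and 1 without the 3 libraries richest in receptor genes. Of 15 oxidative stress genes 3 rose, namely the peroxide-removing enzymes Gpx1 (0.55, 0.0185) and Prdx1 (0.52, 0.021) and the cystine transporter gene Slc7a11 (1.68, 0.0174), and this count was also 0 without untreated replicate 2, and 1 with the receptor gene level in the fit or without those 3 libraries. Of 21 matrix remodelling genes 19 were positive (median 1.75) and 6 rose, among them Adamts2 (2.51, 0.0246), and Adamts14 fell. The 6 became 1 without untreated replicate 2 or 3 and 2 without fusion protein replicate 2 or 20 Gy replicate 2, 1 with the receptor gene level in the fit and 2 without those 3 libraries.

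All 11 tested mitochondrially encoded genes were positive (median 0.43), although 0 of the 11 were higher in all 6 pairs. The mean level of the list was higher in 3 pairs and lower in 3, and the median difference was 0.09 in numbers 1 and 2 alone. The mitochondrial read share given above, which separated the arms, counted all genes with an mt- symbol and not only the 13 listed. Summed normalized counts of the list overlapped, at 79660 to 324825 with radiation and 79369 to 147210 without. Which mt- genes carried the separation was not tested. Of the tested list genes mt-Nd6 rose (0.90, 0.0202), its call lost without untreated replicate 2 or 3 or fusion protein replicate 2. In the list 5 rose with the receptor gene level in the fit and 5 without those 3 libraries. The heat shock genes Hspa1a (1.05, 0.0389) and Hspa1b (1.14, 0.0421) rose within a dissociation stress list of median 0.00, of which 3 other members fell, and each was called in 3 of the 12 leave-one-out fits. With the receptor gene level in the fit 0 members of that list rose and 0 fell. Of 10 costimulation genes Tnfsf15 (1.45, 0.0487) rose beside Cd86 and Cd40. Tnfsf15 was called in 2 of the 12 leave-one-out fits, and the list count of 3 was 0 or 1 without any one of 10 libraries and 3 with the receptor gene level in the fit. The basement membrane list had 13 of 15 positive (median 0.88) and 0 called by limma or edgeR with the block, 3 higher by DESeq2 with the block, and up to 2 by limma with 1 library left out. Of 38 tested receptor genes 33 were positive (median 1.45) and 5 rose.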
